A study of Mus musculus with 2 samples.

Results

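The 9 genes Eomes, Lmx1a, Tbr1, Lhx2, Lhx9, Otx2, Pax6, Meis1 and Meis2 encode transcription factors of the glutamatergic lineages that leave the rhombic lip. They were taken by symbol from the 32285 genes counted in single nuclei of the mouse cerebellum at postnatal day 1, and each symbol matched 1 gene. There were 2 libraries, 1 per group, each made from nuclei of 12 pooled cerebella and counted as unique molecular identifiers (UMIs). The control group carried floxed Tox3, a gene of the TOX high-mobility-group family, without Cre, and its labels give the genotype as Tox3f/f in one field and as Tox3f/f or Tox3f/+ in another. The cKO group was Nestin-cre;Tox3f/f, in which Cre is driven by Nestin regulatory sequence in neural precursors and reaches the neurons and glia that descend from them, but not microglia. With 1 library per group no test between groups was possible. Every level is given as UMIs of a gene per 1000000 UMIs (CPM) with its exact 95% Poisson interval, every share above 0 of which an interval is given with a Clopper-Pearson interval, a share of 0 with the limit that 3 counts set, and every ratio (library labelled cKO over control) with an exact conditional interval. The intervals hold counting error alone, and animals, dissections and libraries add a spread that they leave out.

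The rhombic lip is the dorsal germinal zone of the hindbrain. It gives rise in turn to the glutamatergic neurons of the cerebellar nuclei, to granule cell progenitors, which move over the surface of the cerebellum and divide there, and to unipolar brush cells, excitatory interneurons of the granular layer. Pax6, a paired-box and homeobox factor, and Meis1, a homeobox factor of the TALE class, are transcribed throughout the granule lineage. Eomes, a T-box factor also named Tbr2, marks unipolar brush cells, and the LIM-homeobox factor Lmx1a and the homeobox factor Otx2 are known from that lineage and from the rhombic lip itself. Tbr1, a T-box factor, the LIM-homeobox factors Lhx2 and Lhx9 and the TALE factor Meis2 are known from neurons of the cerebellar nuclei.

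In the coordinates of GRCm38, Pax6 (ENSMUSG00000027168) lies on chromosome 2 from 105668900 to 105697364, plus strand. Meis1 (ENSMUSG00000020160) lies on chromosome 11 from 18879817 to 19018985, minus strand, and Meis2 (ENSMUSG00000027210) on chromosome 2 from 115863064 to 116065839, minus strand. Otx2 (ENSMUSG00000021848) lies on chromosome 14 from 48657677 to 48673819, minus strand. Eomes (ENSMUSG00000032446) lies on chromosome 9 from 118478212 to 118486132, plus strand, and Lmx1a (ENSMUSG00000026686) on chromosome 1 from 167689237 to 167848741, plus strand. Tbr1 (ENSMUSG00000035033) and Lhx2 (ENSMUSG00000000247) lie on chromosome 2, from 61802930 to 61814114 and from 38339281 to 38369733, both on the plus strand. Lhx9 (ENSMUSG00000019230) lies on chromosome 1 from 138825186 to 138848577, minus strand. Antisense genes overlap Pax6 (Pax6os1), Otx2 (Otx2os1), Meis1 (Gm16140 and Gm16141), Eomes (Gm33460) and Lhx2 (Gm27197 and Gm13584), and whether the counting kept strands is not given in the sources used here, so the values of these 5 members may include reads of their partners.

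After filtering, 4667 control nuclei with 20546345 UMIs and 6555 nuclei of the library labelled cKO with 30147400 UMIs remained, at medians of 3978 and 4025 UMIs per nucleus. The libraries shared 9 barcodes. Tox3 stood at 104 CPM in the control library and at 119 CPM in the one labelled cKO (ratio 1.14, 1.08 to 1.20). Because counted reads of a gene can come from parts outside a deleted segment, this checked nothing about the deletion. Nuclei were assigned to cell types by marker gates, that is, by whether the summed UMIs of a marker list were more likely at the level of its cell type than at that of other nuclei. The gates are rebuilt names and not an annotation by the authors. The granule progenitor gate held 334 nuclei of the control library (7.16%) and 67 of the one labelled cKO (1.02%), a ratio of shares of 0.143 (0.108 to 0.186). The granule neuron gate held 1065 (22.8%) and 1245 (19.0%), the unipolar brush gate 77 (1.65%) and 84 (1.28%), and the cerebellar nuclei gate 93 (1.99%) and 218 (3.33%). Nuclei of no gate were 37.9% and 29.0%.

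**Figure D1:**
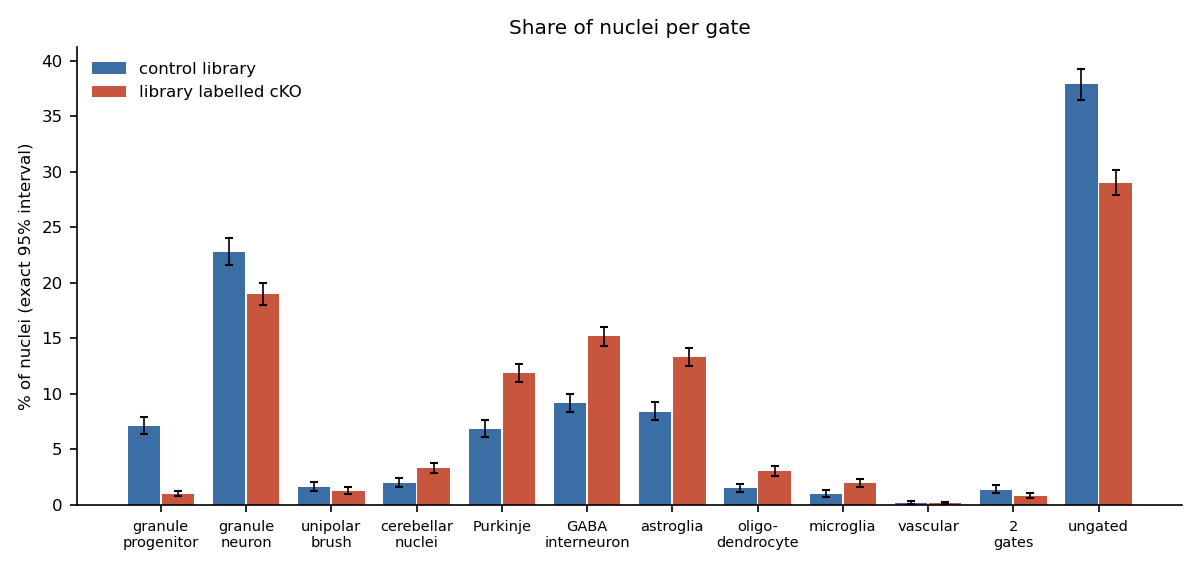
Share of nuclei in each marker gate (y axis, % of the library's nuclei) for the control library and the library labelled cKO, with exact 95% binomial intervals. The granule progenitor gate held 7.16% and 1.02% of nuclei, whereas the cerebellar nuclei, Purkinje, GABA interneuron and glial gates held larger shares in the library labelled cKO.

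The granule gates were set by a list that includes Zic1 and Neurod1, and the unipolar brush gate by 2 or more UMIs of Eomes. The cerebellar nuclei gate was set by 2 or more UMIs of Slc17a6, a vesicular glutamate transporter, in nuclei of no other gate. That gate also left out nuclei whose granule list was not clearly at the level of other nuclei. Nuclei with 2 or more UMIs of progenitor markers or of Eomes were left out as well. Granule markers and Eomes are thus held low there by the rule. No other member than Eomes set a gate. The unipolar brush gate was checked against further markers. Calb2 stood at 75.6 and 157 CPM there against 10.1 and 14.6 CPM in the whole libraries, in the control library and in the one labelled cKO. Plcb1 and Plcb4 were lower in the gate than in the whole libraries, and Sln had 0 and 1 UMIs. The cerebellar nuclei gate turned out to hold nuclei of several kinds, as the members themselves show, and its name stands for the rule only.

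Each member had its own distribution over the gates. Pax6 was highest in the granule progenitor gate, at 612 CPM (573 to 653) in the control library and 611 CPM (523 to 709) in the one labelled cKO. The level stepped down to 506 (486 to 526) and 449 (431 to 468) CPM in granule neurons, 334 (282 to 393) and 228 (182 to 282) CPM in the unipolar brush gate and 195 (166 to 228) and 60.8 (50.3 to 72.9) CPM in the cerebellar nuclei gate. The intervals of neighbouring gates in this order did not overlap within either library. Outside the glutamatergic gates Pax6 was carried by astroglia, at 300.3 and 316 CPM, a level whose interval overlapped that of the unipolar brush gate in control. Microglia, whose UMIs of neural genes can come from free RNA, held Pax6 at 88.7 (47.2 to 152) and 13.1 (4.26 to 30.6) CPM at median depths of 2910 and 2572 UMIs, below every glutamatergic gate of the same library.

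Meis1 was high in the granule lineage, in unipolar brush nuclei and in astroglia alike. In control it stood at 1498 CPM (1437 to 1561) in granule progenitors, 1182 (1151 to 1212) in granule neurons, 1196 (1095 to 1303) in unipolar brush nuclei and 1471 (1408 to 1535) in astroglia. Granule progenitors and astroglia could not be told apart by their intervals, and neither could granule neurons and unipolar brush nuclei. In the library labelled cKO the levels were 1338 CPM (1207 to 1480.3), 1036 (1008 to 1063), 1300.5 (1187 to 1422) and 1625 (1579 to 1671), so that astroglia were highest there. Meis1 was lowest of the 4 glutamatergic gates in the cerebellar nuclei gate, at 549 (499 to 603) and 503 (472 to 536) CPM.

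Meis2, a close relative of Meis1, was low in the granule lineage and high in the cerebellar nuclei gate. It stood at 979.8 CPM (912 to 1051) in the control library and 893 CPM (851 to 936) in the one labelled cKO in the cerebellar nuclei gate, and at 9.29 and 10.6 CPM in granule progenitors, 11.5 and 17.4 CPM in granule neurons and 22.9 and 56.9 CPM in unipolar brush nuclei. The cerebellar nuclei gate, with 1.99% and 3.33% of the nuclei, held 43.3% and 47.6% of all Meis2 UMIs. Up to 85 Meis2 UMIs were counted in 1 control nucleus of that gate and up to 70 in 1 nucleus of the library labelled cKO. Astroglia, at 50.4 and 43.5 CPM, GABA interneurons, at 83.2 and 52.5 CPM, and the oligodendrocyte lineage, at 142 and 136 CPM, held intermediate levels.

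Eomes, Lmx1a and Otx2 were highest in the unipolar brush gate. The Eomes level there, 486 CPM (422 to 556) in the control library and 579.8 CPM (505 to 663) in the one labelled cKO, follows from the rule that made the gate and is no finding. Lmx1a stood at 431 CPM (371 to 497) and 534 CPM (462 to 614), at least 1 UMI being found in 43 of 77 (55.8%) and 49 of 84 nuclei (58.3%). In granule progenitors Lmx1a had 1 UMI in each library, and in granule neurons it stood at 14.1 and 20.2 CPM. Otx2 stood at 126 CPM (94.9 to 164) and 84.0 CPM (57.1 to 119) in unipolar brush nuclei and was also read in the granule lineage, at 35.8 and 28.3 CPM in progenitors and 40.3 and 36.3 CPM in granule neurons. Microglia, which arise outside the neural lineages, had 0 UMIs of Lmx1a in 48 and 130 nuclei, which by 3 counts allows shares of nuclei with a UMI of up to 6.25% and 2.31%, and 0 and 1 UMIs of Otx2.

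Tbr1, Lhx2 and Lhx9 were rare. Lhx9 had 121 UMIs in the control library and 199 in the one labelled cKO, of which 45.5% and 44.7% lay in the cerebellar nuclei gate, where its level was 68.8 CPM (51.8 to 89.6) and 46.3 CPM (37.2 to 56.9). Lhx2 had 31 and 40 UMIs in all, of which 7 and 14 lay in that gate and 15 and 24 in nuclei of no gate. Not a single Lhx2 UMI was found in the 1065 and 1245 granule neurons, which by 3 counts allows shares of nuclei with a UMI of up to 0.282% and 0.241%. These limits concern nuclei with a UMI and not nuclei that express the gene. Tbr1 had 29 and 47 UMIs, 7 and 9 of them in the cerebellar nuclei gate, and only 5 nuclei of each library had 2 or more. At this depth Tbr1 and Lhx2 could be compared between the whole libraries but hardly within a gate.

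**Figure D2:**
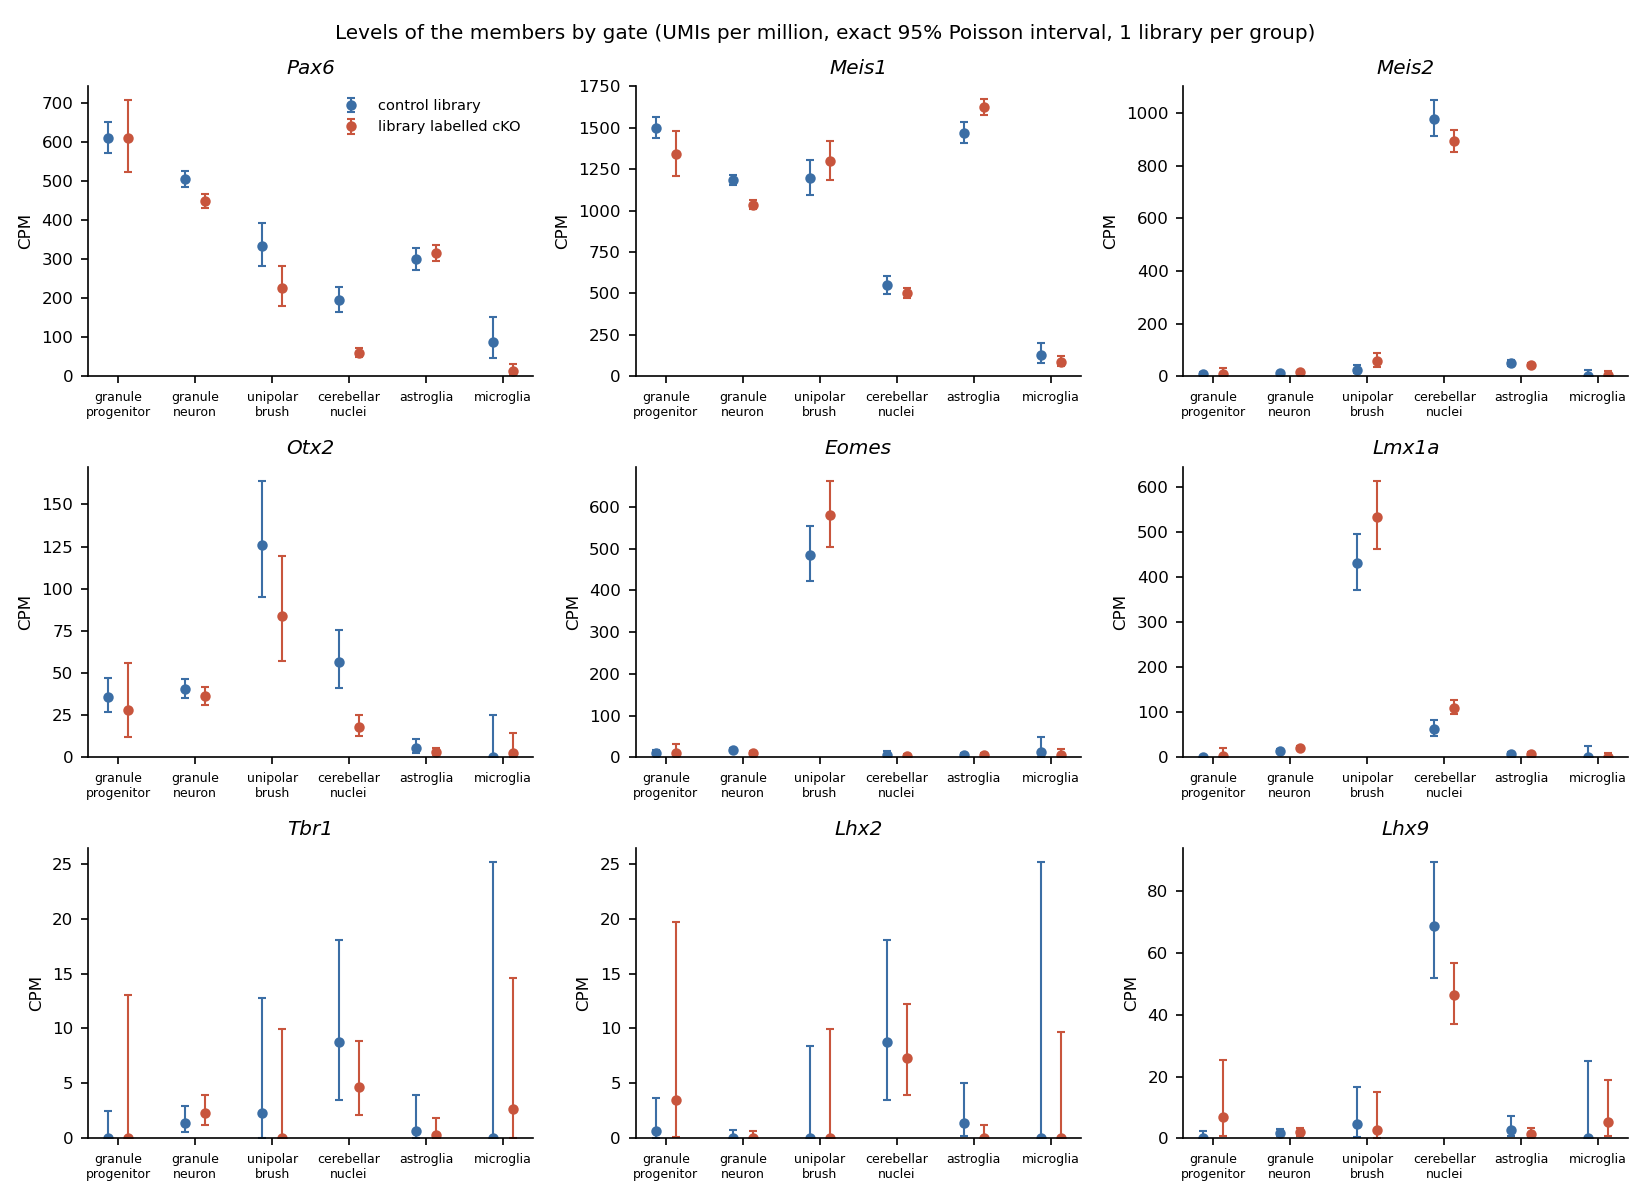
Level of each member in CPM (y axis, linear, a scale of its own per panel) in 6 gates, for the control library and the library labelled cKO, with exact 95% Poisson intervals. Pax6 and Meis1 fill the granule gates, Eomes, Lmx1a and Otx2 peak in the unipolar brush gate, and Meis2 and Lhx9 peak in the cerebellar nuclei gate.

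The libraries were compared as wholes first, over nuclei of every cell type and not of the rhombic lip lineages alone. Pax6 stood at 317 CPM (309.8 to 325) in the control library and at 188 CPM (183 to 193) in the one labelled cKO, a ratio of 0.592 (0.571 to 0.613). Otx2 went from 35.5 to 19.97 CPM, a ratio of 0.562 (0.504 to 0.627), and Eomes from 23.8 to 14.7 CPM, a ratio of 0.619 (0.543 to 0.705). These 3 of 9 members lay at least 1.5-fold lower and 0 of 9 lay 1.5-fold higher, where of the 20213 genes with at least 20 UMIs 14.7% lay past 1.5-fold either way, 7.72% lower and 7.03% higher. With each nucleus thinned to 1000 UMIs the Eomes ratio was 0.692 (0.520 to 0.920), within 1.5-fold. Meis1 was lower by less, at 779 and 589 CPM (ratio 0.757, 0.741 to 0.773). Meis2 went the other way, from 87.9 to 119.6 CPM (ratio 1.36, 1.29 to 1.44). The ratios of Lmx1a (1.03, 0.936 to 1.14), Lhx9 (1.12, 0.890 to 1.42), Tbr1 (1.10, 0.681 to 1.82) and Lhx2 (0.879, 0.536 to 1.45) had intervals that held 1. The median ratio over the 9 members was 0.879, against 0.987 over all genes tested.

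In a sum over a library, fewer nuclei of a type and less RNA per nucleus cannot be told apart. The whole-library ratio of each member was therefore set beside the ratio that gate sizes alone would give, with control levels kept in every gate. Gate size here means a gate's share of the library's UMIs, which holds both its number of nuclei and their depth. For Meis2 the values lay close together, at 1.36 measured and 1.31 from gate sizes, and the interval of the measured ratio held the latter. For Pax6 gate sizes alone gave 0.794 against 0.592 measured, for Otx2 0.844 against 0.562, for Eomes 0.746 against 0.619 and for Meis1 0.835 against 0.757, and each of these 4 measured values was the lower one. The measured intervals hold counting error only and the values from gate sizes have no interval, and Eomes sets one of the gates, so no cause is read from the gap. For Lmx1a gate sizes gave 0.873 against 1.03 measured, but with thinning to 1000 UMIs the measured ratio was 0.809 (0.649 to 1.01), on the other side. This arithmetic counts nuclei of no gate as a class of their own, and there Pax6 had a ratio of 0.644 (0.603 to 0.688), Otx2 of 0.624 (0.529 to 0.735) and Eomes of 0.689 (0.532 to 0.891).

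**Figure D3:**
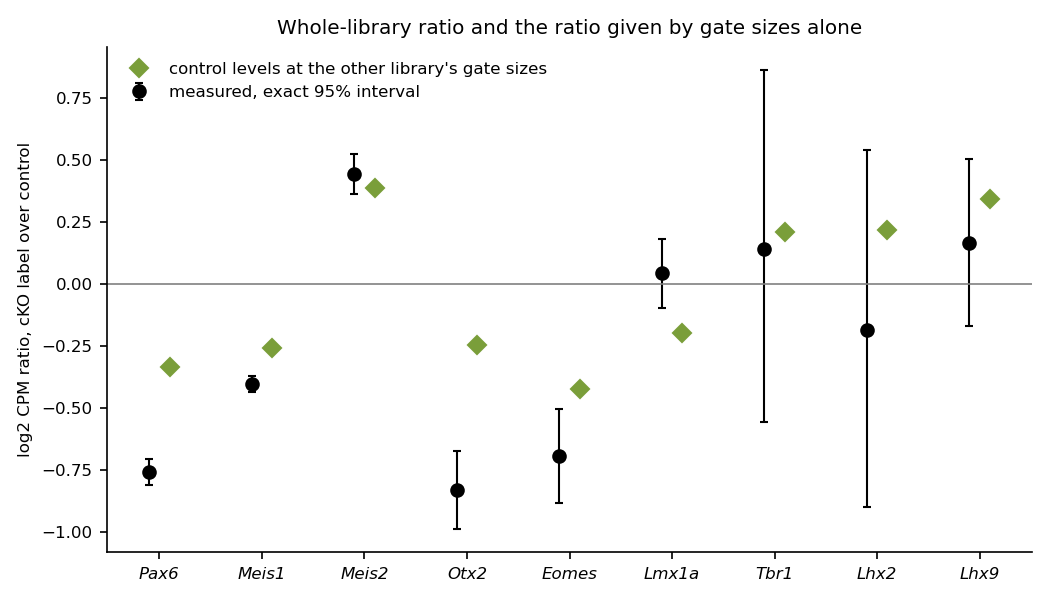
log2 ratio of whole-library CPM (y axis) for each member, as measured with its exact 95% interval and as given by gate sizes (diamonds). The diamonds take control levels at each gate's share of UMIs in the library labelled cKO. The diamond lies above the measured value for Pax6, Meis1, Otx2 and Eomes, below it for Lmx1a, and within the interval for Meis2.

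The sequence upstream of the start is shown for Pax6, Otx2 and Eomes, the members that lay past 1.5-fold in the whole libraries. Each window holds the 250 bases before a RefSeq start site (GRCm38.p6, 5′ to 3′ on the strand of the gene) and overlaps no annotated exon. The Pax6 and Eomes windows lie upstream of the annotated gene and the Otx2 window lies in an intron of its longer transcripts, and capitals mark E-boxes (CANNTG on either strand), the motif of basic helix-loop-helix factors such as Atoh1 and Neurod1.
Pax6, chr2:105668646-105668895, plus strand: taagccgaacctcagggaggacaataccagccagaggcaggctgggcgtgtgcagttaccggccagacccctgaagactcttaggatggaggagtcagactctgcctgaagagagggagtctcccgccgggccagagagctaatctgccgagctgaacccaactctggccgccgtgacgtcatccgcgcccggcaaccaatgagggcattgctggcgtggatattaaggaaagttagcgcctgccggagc
Otx2, chr14:48667645-48667894, minus strand: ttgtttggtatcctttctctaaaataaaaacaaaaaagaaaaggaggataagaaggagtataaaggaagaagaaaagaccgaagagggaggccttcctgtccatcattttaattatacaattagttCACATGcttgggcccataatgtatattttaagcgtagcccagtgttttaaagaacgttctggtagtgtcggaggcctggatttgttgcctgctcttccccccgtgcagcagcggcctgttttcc
Eomes, chr9:118477939-118478188, plus strand: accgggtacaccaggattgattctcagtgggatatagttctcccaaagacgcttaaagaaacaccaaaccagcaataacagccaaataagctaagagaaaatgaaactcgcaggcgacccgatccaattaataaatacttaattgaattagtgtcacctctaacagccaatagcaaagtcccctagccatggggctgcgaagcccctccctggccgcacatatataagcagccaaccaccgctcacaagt
Of these windows the Otx2 window held 1 E-box, CACATG, which begins at base -124 from the start, and the Pax6 and Eomes windows held none. Other windows of Pax6 and Otx2 overlap exons and are not shown. The other Pax6 window held CAAATG at base -20. Of the other Otx2 windows, 1 held CATTTG and CATCTG, 1 held CAACTG and 1 held none. RefSeq gave 14 windows for the 9 members, and 8 of them held an E-box, where 66.2% of the 32851 windows searched did. The search left out 1 chromosome, which holds none of the 9 members. No match says only that these letters were not in the window.

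Granule progenitors were compared next, to ask whether the members' levels within the remaining progenitors differed. Pax6 was at 612 and 611 CPM there, a ratio of 0.999 (0.844 to 1.18), and Pax6 UMIs were found in 86.2% of control and 83.6% of the other nuclei. Meis1 stood at 1498 and 1338 CPM, a ratio of 0.893 (0.799 to 0.996). Otx2 had 54 and 8 UMIs (ratio 0.788, 0.324 to 1.67), and Eomes had 17 and 3 UMIs. None of the 4 members with at least 20 UMIs lay past 1.5-fold, where 37.3% of 10058 genes did (23.8% lower and 13.5% higher). The Eomes value is capped at 1 UMI per nucleus by the unipolar brush gate. With no such gate Eomes stood at 18.2 (12.1 to 26.2) and 10.6 (2.18 to 31.0) CPM in progenitors, more than 1.5-fold apart, with intervals that overlapped. Meis2 had 14 and 3 UMIs, Lmx1a 1 and 1, Lhx2 1 and 1, Lhx9 0 and 2, and Tbr1 0 in both. The progenitors themselves differed in other genes of the related list, with Barhl1 at 125 and 14.1 CPM (ratio 0.113, 0.0304 to 0.293) and Zic1 at 517 and 894 CPM (ratio 1.73, 1.49 to 1.99), both of which also set the gate.

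In granule neurons Pax6 went from 506 to 449 CPM, a ratio of 0.888 (0.839 to 0.940), and Meis1 from 1182 to 1036 CPM, a ratio of 0.876 (0.845 to 0.910). These intervals lay below 1 but within 1.5-fold. Otx2 stood at 40.3 and 36.3 CPM, a ratio of 0.900 whose interval (0.734 to 1.10) held 1. Of the 6 members with at least 20 UMIs, 2 lay past 1.5-fold, 1 each way, against 13.2% of 14546 genes (7.94% lower and 5.29% higher). Eomes was at 17.1 and 10.95 CPM (ratio 0.639, 0.450 to 0.903), read from 85 and 58 nuclei with exactly 1 UMI each, since nuclei with more belonged to the unipolar brush gate. This call ended with no Eomes gate (22.9 and 18.1 CPM, less than 1.5-fold apart), with thinning (ratio 0.774) and in stricter gates (0.738). Meis2 was at 11.5 and 17.4 CPM (ratio 1.51, 1.08 to 2.14), but 1 nucleus of the library labelled cKO held 33 of the 92 UMIs, and without the nucleus with most Meis2 UMIs in each library the levels were 10.1 and 11.2 CPM and the ratio was 1.11 (0.746 to 1.65). Lmx1a rested on few nuclei as well, with 70 and 107 UMIs in 3.10% and 3.05% of the granule neurons (ratio 1.43, 1.05 to 1.96). With thinning to 1000 UMIs its ratio was 0.814 (0.371 to 1.79), on the other side of 1. Tbr1 had 7 and 12 UMIs and Lhx9 8 and 10.

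The unipolar brush gate was compared without Eomes. Pax6 stood at 334 and 228 CPM, a ratio of 0.681 (0.514 to 0.896), with a UMI in 53 of 77 (68.8%) and 44 of 84 nuclei (52.4%), against 14.6% and 3.08% of microglia. Otx2 stood at 126 and 84.0 CPM, a ratio of 0.667 whose interval (0.415 to 1.05) held 1, with a UMI in 31 of 77 and 21 of 84 nuclei. Lmx1a was at 431 and 534 CPM (ratio 1.24, 1.01 to 1.52) and Meis1 at 1196 and 1300.5 CPM (ratio 1.09, 0.959 to 1.23). Of the 5 members with at least 20 UMIs only Meis2 lay past 1.5-fold, against 21.6% of 6465 genes (10.6% higher). Its 10 and 21 UMIs came from 4 and 6 nuclei (22.9 and 56.9 CPM, ratio 2.48, 1.12 to 5.91). When each nucleus was thinned to 1000 UMIs, the shares with a Pax6 UMI were 16.9% (9.31 to 27.1) and 15.7% (8.61 to 25.3), and the difference was not detectable at that depth. The median depth of the gate was 4820 UMIs in the control library and 3982 in the one labelled cKO. In stricter gates, with at least 3 Eomes UMIs, the ratio of Pax6 was 1.12 and that of Lmx1a 0.913, so that the direction of both depended on which nuclei were taken in. Tbr1 had 1 and 0 UMIs, Lhx9 2 and 1, and Lhx2 none.

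Some unipolar brush nuclei carried granule markers past the threshold of the granule gate. Without them, an alternative chosen after the data had been seen, the ratio was 0.585 (0.411 to 0.824) for Pax6, 0.590 (0.353 to 0.965) for Otx2 and 3.04 (1.29 to 7.94) for Meis2, and 3 members lay past 1.5-fold, against 24.2% of 5537 genes. The granule list summed to 1986 and 1704 CPM in the whole gate.

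Members were then read together in single nuclei of the unipolar brush gate. In control, Otx2 UMIs were found in 21 of 43 nuclei with Lmx1a (48.8%, 33.3 to 64.5) and in 10 of 34 without (29.4%, 15.1 to 47.5). In the library labelled cKO the counts were 13 of 49 (26.5%, 14.9 to 41.1) and 8 of 35 (22.9%, 10.4 to 40.1). Pax6 UMIs were found in 31 of 43 control nuclei with Lmx1a (72.1%, 56.3 to 84.7) and in 23 of 49 nuclei of the other library (46.9%, 32.5 to 61.7). Nuclei are not replicates, and deeper nuclei show more genes, so these shares are a description.

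Lmx1a was not limited to nuclei with Eomes. Of the control nuclei with at least 2 Lmx1a UMIs, 83 had an Eomes UMI and 54 had none. In the library labelled cKO the numbers were 82 and 111. The nuclei without Eomes had more Meis2 than those with it, at 356 against 90.9 CPM in the control library and 269.8 against 78.5 CPM in the one labelled cKO. They also had more Slc17a6, at 183 against 102 CPM and 236 against 83.5 CPM, and less Calb2, at 32.9 against 87.3 CPM and 67.4 against 230.3 CPM. A nucleus can lack an Eomes UMI for want of depth, so this division is not exact.

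Of the 4 glutamatergic gates, the cerebellar nuclei gate gave the ratios of Pax6 and Otx2 furthest from 1. Pax6 stood at 195 CPM in the control library and 60.8 CPM in the one labelled cKO, a ratio of 0.312 (0.243 to 0.399), with a UMI in 54.8% and 21.6% of nuclei. Otx2 stood at 56.3 (41.1 to 75.3) and 18.2 (12.7 to 25.3) CPM, a ratio of 0.323 (0.202 to 0.514). The Otx2 ratio was 0.581 (0.240 to 1.46) in stricter gates and 0.469 (0.181 to 1.23) with thinning to 1000 UMIs. Both of these intervals held 1. Lmx1a was higher, at 62.6 (46.4 to 82.5) and 110.2 (95.9 to 126) CPM, a ratio of 1.76 (1.29 to 2.45). In stricter gates this call ended, at 1.33 (0.944 to 1.90), and Lhx9 lay past 1.5-fold there instead, at 0.644 (0.444 to 0.942). These 3 of the 7 members with at least 20 UMIs lay past 1.5-fold, against 22.3% of 11163 genes (10.5% lower and 11.8% higher). Meis2 (ratio 0.911, 0.837 to 0.993) and Meis1 (0.915, 0.817 to 1.03) differed by less, and Lhx9 lay just inside 1.5-fold (0.672, 0.475 to 0.959). A single control nucleus held 11 of its 55 Lhx9 UMIs there, and without the nucleus with most Lhx9 UMIs in each library the ratio was 0.794 (0.545 to 1.17). Lhx2 had 7 and 14 UMIs (ratio 0.831, 0.314 to 2.43), Tbr1 7 and 9 and Eomes 5 and 8, where the gate rule holds Eomes low. Pax6 in microglia, which are not known to transcribe it, moved the same way, from 88.7 to 13.1 CPM (ratio 0.148, 0.0413 to 0.442). The granule list stood at 382 and 192 CPM in the same microglia, with 2 of its 10 genes at 0 in each library. It stood at 489 and 294 CPM in the cerebellar nuclei gate, whose rule holds this list low. The part of free RNA in the Pax6 and Otx2 values was not tested.

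**Figure D4:**
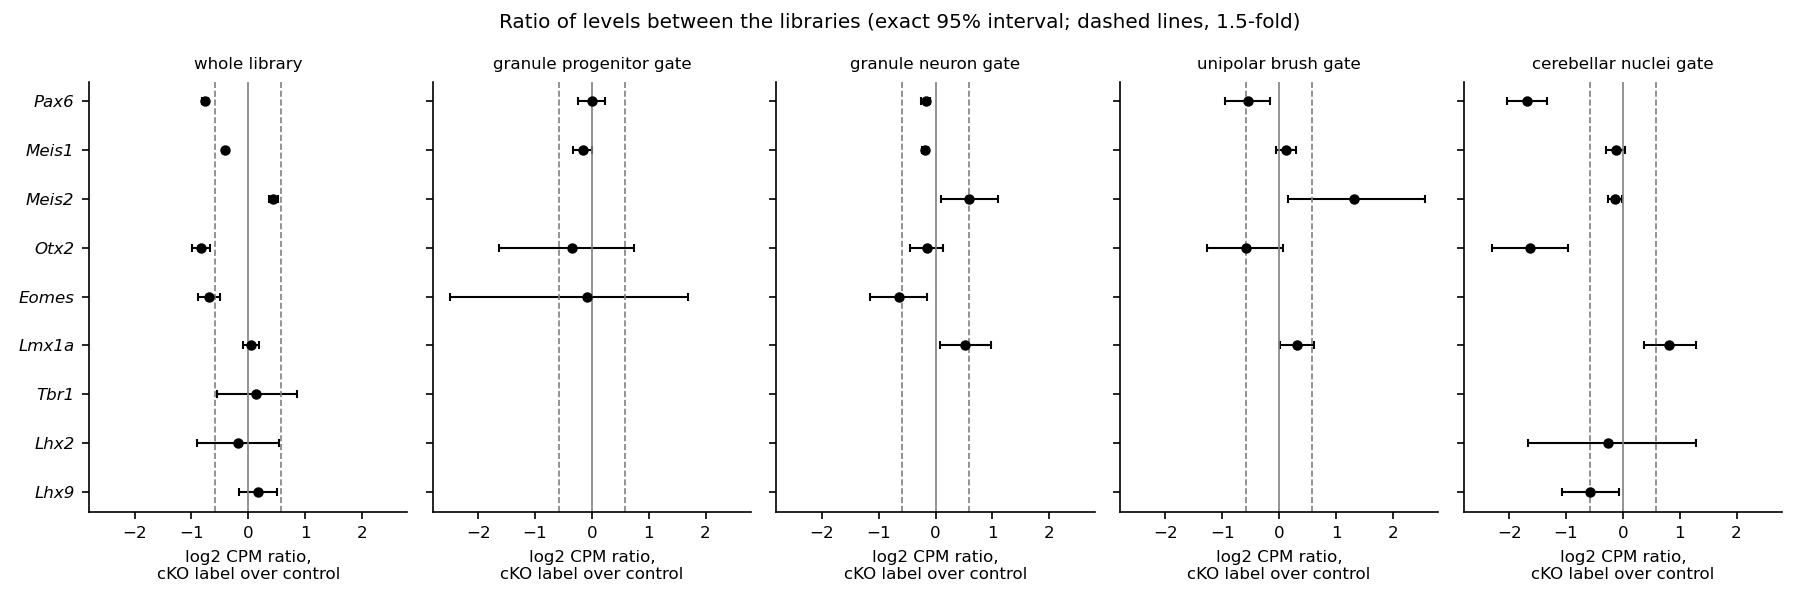
log2 ratio of CPM (x axis, library labelled cKO over control) of each member with at least 20 UMIs, in the whole libraries and in 4 gates, with exact 95% intervals and dashed lines at 1.5-fold. Pax6 lies at 0 in granule progenitors and furthest to the left in the cerebellar nuclei gate, and Lmx1a lies to the right in that gate.

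The members divided the cerebellar nuclei gate into kinds of nuclei. Meis2 was either absent or abundant: in control 38 of 93 nuclei had 2 or more Meis2 UMIs, 5 had 1 and 50 had none, and in the library labelled cKO the numbers were 92, 12 and 114 of 218. Nuclei with 2 or more Meis2 UMIs held Lhx9 at 112 CPM in the control library and 73.7 CPM in the one labelled cKO, against 9.70 and 20.8 CPM in nuclei with none. All 7 control UMIs of Tbr1 and 5 of its 9 UMIs in the other library lay in them. Lhx9 UMIs were found in 22 control nuclei, 20 of them with Meis2 (90.9%, 70.8 to 98.9), and in 50 nuclei of the other library, 39 of them with Meis2 (78.0%, 64.0 to 88.5). Lhx2 and Lhx9 met in 6 and 10 nuclei.

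Pax6 and Otx2 stood higher in the nuclei without Meis2. Pax6 stood at 453 CPM in the 50 control nuclei with no Meis2 UMI and at 26.3 CPM in the 38 with 2 or more. In the library labelled cKO the levels were 114 and 11.9 CPM. Otx2 stood at 133 and 6.57 CPM in these control nuclei and at 28.4 and 9.76 CPM in the other library. The ratio between the libraries was 0.251 (0.193 to 0.326) for Pax6 and 0.214 (0.126 to 0.359) for Otx2 among nuclei with no Meis2. Among nuclei with 2 or more Meis2 UMIs, Pax6 had 12 and 11 UMIs (ratio 0.454, 0.181 to 1.12), Otx2 had 3 and 9 UMIs (ratio 1.49, 0.371 to 8.53), Meis2 itself, which set this division, had a ratio of 1.09 (0.996 to 1.18) and Meis1 had one of 1.13 (0.979 to 1.31). The granule list summed to 854 CPM in the control nuclei with no Meis2 and to 428 CPM in the other library, against 237 and 154 CPM in nuclei with 2 or more. The gate rule limits this list in all of these nuclei. In the nuclei with no Meis2 the Purkinje list went from 103 to 219 CPM, the GABAergic interneuron list from 100.2 to 185 CPM and the choroid plexus list from 100.2 to 181 CPM. The part of these lists in the result was not tested.

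By the members detected, 42 of 93 control nuclei (45.2%, 34.8 to 55.8) held Pax6 or Otx2 and neither Meis2 nor Lmx1a, against 38 of 218 (17.4%, 12.6 to 23.1) in the library labelled cKO. Nuclei with Meis2 and none of Pax6, Otx2 and Lmx1a made up 30 (32.3%, 22.9 to 42.7) and 84 (38.5%, 32.0 to 45.3). Nuclei with Lmx1a alone of these 4 members made up 4 (4.30%, 1.18 to 10.6) and 37 (17.0%, 12.2 to 22.6), and nuclei with none of the 4 made up 1 (1.08%) and 34 (15.6%). As shares of all nuclei of a library, the kind with Pax6 or Otx2 made up 0.900% and 0.580%, the kind with Meis2 0.643% and 1.28% and the kind with Lmx1a 0.0857% and 0.564%. The kind with Pax6 or Otx2 had medians of 5474 and 5279 UMIs per nucleus and the kind with Meis2 11349 and 8526, so that detection was not equal. The mixture of kinds in the gate differed between the libraries. Whether nuclei of a kind were fewer or had fewer transcripts of its genes cannot be told apart by detection.

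The nuclei with Lmx1a and no Meis2, Pax6 or Otx2 also held Lmx1b, the paralogue of Lmx1a, which is known from the isthmus and the midbrain. Lmx1b UMIs were found in 4 of 4 such control nuclei and in 29 of 37 of the library labelled cKO, and in 0 of 30 and 0 of 84 nuclei with Meis2 alone. None of the 37 had an Lhx9 UMI. Zfhx3, which was examined after the values had been seen, was found in 4 of 4 and 28 of 37, and in 11 of 30 and 26 of 84 nuclei with Meis2 alone. Markers of the dorsal midbrain also lay in the gate. Tfap2d had 43 UMIs in each library, 53.8 and 22.4 CPM, against 7.06 and 5.54 CPM in the whole libraries, and the list of 4 dorsal midbrain genes summed to 60.1 and 30.2 CPM, with 1 gene at 0 in each library. Without nuclei that had a UMI of this list, an alternative chosen after the data had been seen, the ratios were 0.270 (0.208 to 0.350) for Pax6, 0.234 (0.137 to 0.392) for Otx2, 1.88 (1.34 to 2.69) for Lmx1a and 0.928 (0.609 to 1.44) for Lhx9. Markers of the ventral midbrain had 3 and 0 UMIs in the gate.

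**Figure D5:**
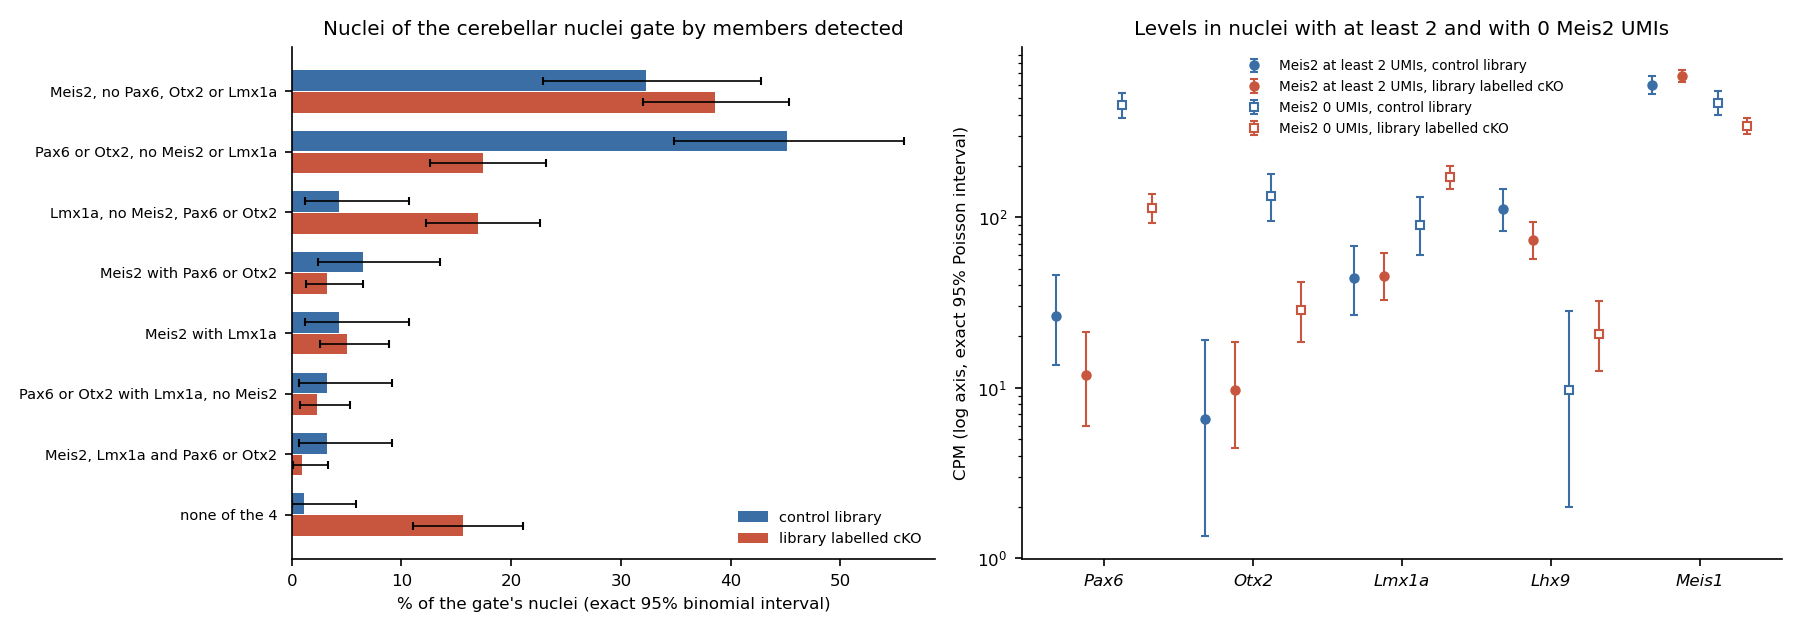
Left, share of the nuclei of the cerebellar nuclei gate (x axis, %, exact 95% binomial interval) by which of Meis2, Pax6, Otx2 and Lmx1a had a UMI. Right, CPM on a log axis (exact 95% Poisson interval) of 5 members in nuclei with at least 2 Meis2 UMIs (filled) and with none (open), where Pax6 and Otx2 are high in control nuclei without Meis2 and Lhx9 is high in nuclei with it.

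Outside the glutamatergic gates the members went different ways. In astroglia Pax6 stood at 300.3 and 316 CPM (ratio 1.05, 0.937 to 1.18) and Meis1 at 1471 and 1625 CPM (ratio 1.10, 1.05 to 1.16), and the share of all Pax6 UMIs that lay in astroglia was 6.58% and 16.7%. In the oligodendrocyte lineage Pax6 went from 107 to 27.5 CPM (ratio 0.256, 0.144 to 0.445) and Meis1 from 345 to 249.6 CPM (ratio 0.723, 0.573 to 0.915). In Purkinje cells Pax6 went from 58.6 to 15.3 CPM (ratio 0.260, 0.200 to 0.336) and Meis1 from 137 to 39.9 CPM (ratio 0.292, 0.248 to 0.342). Microglia of the same libraries held Pax6 at 88.7 and 13.1 CPM and Meis1 at 129.6 and 89.2 CPM. No Purkinje interval of these genes lay wholly above that of microglia. The same held for the Pax6 intervals of the oligodendrocyte lineage (75.6 to 148 and 17.2 to 41.6 CPM). The part of free RNA in these Purkinje and oligodendrocyte values was not tested. Meis2 in GABA interneurons went from 83.2 to 52.5 CPM (ratio 0.630, 0.522 to 0.763). The share of these nuclei with a Meis2 UMI went the other way, with 33 of 427 (7.73%) and 100 of 995 (10.1%). The ratio without the nucleus with most Meis2 UMIs was not computed for this gate.

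A list of 28 further genes of the rhombic lip and of hindbrain patterning was set beside the members. In the whole libraries 26 had at least 20 UMIs, of which 6 lay at least 1.5-fold lower, 1 lay higher and 19 lay within 1.5-fold, with a median ratio of 0.960 against 0.987 over all genes. Over all genes 7.72% lay lower and 7.03% higher. The 6 were Atoh1 (43 and 3 UMIs), Barhl1 (36.5 and 9.82 CPM), Neurod1 (61.0 and 37.1 CPM), Nhlh1 (5.84 and 1.89 CPM), Insm1 (15.1 and 5.61 CPM) and En1 (17.8 and 8.03 CPM), and the first 4 also set the granule gate. The 1 was Lmx1b (1.41 and 5.01 CPM, ratio 3.55, 2.37 to 5.48). Pbx3, a partner of the Meis proteins, was within 1.5-fold, at 619.7 and 588 CPM. In granule neurons Barhl1, Nhlh1, Insm1 and En1 of 21 lay lower, En1 by most (28.8 and 6.80 CPM, ratio 0.236, 0.159 to 0.342), and Lhx5 and Nr4a2 lay higher. The interval of Lhx5 (0.787 to 3.04) held 1. Over all genes 7.94% lay lower there and 5.29% higher. In the unipolar brush gate 2 of 9 lay lower, En2 (22 and 11 UMIs) and Mab21l1 (19 and 9 UMIs), against 11% of all genes. The intervals of En2 and Mab21l1 held 1. In the cerebellar nuclei gate 6 of 13 lay lower, namely Barhl1, Neurod1, Zic1, Zic2, Lhx1 and Meis3, against 10.5% of all genes. The intervals of Barhl1, Zic2, Lhx1 and Meis3 held 1. Barhl1, Neurod1, Zic1 and Zic2 belong to the granule list, which the rule of this gate holds low. Lmx1b lay higher, at 22.5 and 48.9 CPM (ratio 2.17, 1.30 to 3.82), as did 11.8% of all genes. In granule progenitors Atoh1, Wls, Barhl1 and Insm1 of 19 lay lower, Atoh1 with 20 and 0 UMIs, and Barhl2, Zic1 and Pax3 lay higher. Over all genes 23.8% lay lower there and 13.5% higher, and the intervals of Atoh1, Wls and Barhl2 held 1.

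For each member the genes with the most similar profile over 10 gates in 2 libraries, 20 points, were found by Pearson's r of log2(CPM + 1) among genes with a mean of at least 10 CPM. The points share libraries and depth, and no p-value belongs to these correlations. Meis1 was most like Gm16140 (r = 0.893) and Gm16141 (r = 0.879), which lie antisense within the gene, and Pax6os1 (r = 0.864). Pax6 was most like Shf (r = 0.881) and Immp1l (r = 0.868), which lies 207 kb from it on chromosome 2, and Gm16141 (r = 0.847). Otx2 was most like Kcnk9 (r = 0.940), Ntf3 (r = 0.924) and Arpp21 (r = 0.917), and Lmx1a was most like Chst8 (r = 0.909), Samd3 (r = 0.907) and Hs3st4 (r = 0.881). Eomes was most like Otx2os1 (r = 0.806), the antisense partner of Otx2. Meis2 was most like Gm5441 (r = 0.815) and Lhx9 most like Slc17a6 (r = 0.690), which set the cerebellar nuclei gate. Tbr1 (Slc6a7, r = 0.712) and Lhx2 (Cpne4, r = 0.762) had means of 1.36 and 1.18 CPM, so that their profiles rest on few UMIs.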

How the data were processed

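Nuclei were isolated from 12 pooled cerebella per library and sequenced with 10x Genomics 3′ chemistry. According to the submitters' processing notes the authors used Cell Ranger 7.0.1 with mm10, and they deposited filtered matrices of raw UMI counts per gene and nucleus, which were used without rescaling. Whether the counting kept strands is not given in the sources used here. From the deposited 4857 and 6946 nuclei, those with over 25% mitochondrial UMIs (1 and 5) and the highest Scrublet scores (189 and 386, at 0.8% per 1000 barcodes) were removed. No correction for free RNA was applied, since empty droplets were not used here.

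Gates were set by the log likelihood ratio of each marker list (at least 4, and 4 ahead of the next list). Progenitors needed 2 UMIs of progenitor markers. The cerebellar nuclei gate needed the granule ratio at least 4 the other way, and fewer than 2 UMIs of progenitor markers and of Eomes. Counts were summed per gate and library and divided by the UMIs of the gate. Genes needed 20 UMIs over both libraries to be counted past 1.5-fold. Members and lists were chosen with earlier results of these data known, and gate thresholds were set after the data had been seen. Named were the 9 members, a list of 28 related genes (those past 1.5-fold by name), gate markers, and the 3 genes most like each member. Some markers and related genes are not reported here. Lmx1b nuclei and Zfhx3 were singled out after their values had been seen. Alternatives were median-of-ratios and TMM scaling, doublets kept, no minimum of UMIs, at least 1000 UMIs per nucleus, thinning to 1000 UMIs, looser and stricter gates, no Eomes gate, and exclusions of nuclei. The ratios with their intervals and the assignment by marker lists were tested on simulated counts. The rules for progenitors, Eomes and Slc17a6, the thinning and the arithmetic of gate sizes were not. Genes were located with GENCODE on GRCm38. Software was Python 3.11.15, NumPy 2.4.6, SciPy 1.17.1, pandas 2.3.3, Scanpy 1.11.5, matplotlib 3.10.9, R 4.3.3 and edgeR 4.0.16 (TMM factors only).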

Additional observations from a re-analysis of the deposited data

Results flagged for a closer look

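Meis2 had ratios on opposite sides of 1 in different gates. It was 1.51 in granule neurons and 2.48 in the unipolar brush gate against 0.911 in the cerebellar nuclei gate, and the difference was not tested, since each group has 1 library. The direction in the cerebellar nuclei gate depended on the processing, with 1.05 after thinning to 1000 UMIs and 1.09 in stricter gates. The granule neuron value fell to 1.11 without the nucleus with most Meis2 UMIs in each library, and the unipolar brush value rests on 4 nuclei of the control library and 6 of the one labelled cKO. In nuclei of no gate, which enter no comparison of their own, Meis2 stood at 108 and 173 CPM, a ratio of 1.60 (1.45 to 1.77).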

How the results depend on the processing

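Of 56 recomputed counts and shares, 42 stayed close to the reported value. No ratio past 1.5-fold changed sides of 1, and 218 of 234 recomputed single values lay within the reported interval. In granule progenitors the count of members past 1.5-fold went from 0 to 1 in stricter gates, where Otx2 had a ratio of 1.52 against 0.788 reported and 46.3% of 7652 genes lay past 1.5-fold. In granule neurons it went from 2 to 1 with nuclei of at least 1000 UMIs, with thinning to 1000 UMIs, in looser and in stricter gates and without the nucleus with most UMIs of the gene, and to 3 with doublets kept. The share of all genes past 1.5-fold was 13.2% to 17.7% in these, and was not computed without the top nucleus, which differs by gene. In the whole libraries it went from 3 to 2 with thinning (15.5% of all genes). In the unipolar brush gate it went from 1 to 2 with TMM scaling, which put Otx2 just past 1.5-fold, to 0 with thinning (27.8% of 1696 genes) and to 3 both without nuclei past the granule threshold (24.2% of 5537 genes) and without the nucleus with most UMIs. The last exclusions were chosen after the data had been seen. The ratio of shares was 0.269 in looser and 0.0760 in stricter gates for granule progenitors, and 0.977 and 0.764 for granule neurons. With thinning the whole-library ratio of Lmx1a was 0.809 and that of Lhx9 0.759, and the Lmx1a ratio in granule neurons was 0.814. The Meis2 ratio in the cerebellar nuclei gate was 1.05 with thinning and 1.09 in stricter gates. In the cerebellar nuclei gate the count stayed at 3, but in stricter gates Lhx9 took the place of Lmx1a. The Otx2 ratio in that gate was 0.581 in stricter gates and 0.469 with thinning, with intervals that held 1. No paired analysis was possible because each group has 1 library and no test was run, and for the same reason no replicate could be left out. Depth limited Tbr1, Lhx2 and, in granule progenitors, every member other than Pax6 and Meis1.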
